A study of Mus musculus with 9 samples.

Results

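A set of 91 protein-coding genes had less RNA in antigen-stimulated mast cells (BSA) than in untreated cells (Control), and more again when luteolin was given to stimulated cells (BSA + luteolin). They were chosen by the measured values, from counts scaled to library depth (CPM) with TMM factors, which adjust for differences in RNA composition between libraries. A gene was taken if it was protein coding with a median CPM above 1, its mean in BSA was at most 0.71 times its mean in Control, its mean in BSA + luteolin was at least 1.4 times its mean in BSA, and its highest BSA library lay below the lowest of the other 6 libraries. Of 47643 genes in the deposited table, 11560 had a median CPM above 1, 10831 of these were protein coding, and 91 met all conditions. Both ratios share the 3 BSA libraries, so a gene that read low in BSA by chance met both more easily. If the TMM factors were taken from all rows of the table instead of the genes above the filter, 100 genes met the rule, 80 of them among the 91.

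The cells were bone marrow-derived mast cells (BMMCs), grown from C57BL/6 bone marrow in WEHI-3-conditioned medium, a source of IL-3, for at least 4 weeks. Each of the 3 groups had 3 libraries. Control cells were untreated, BSA cells were stimulated through DNP-specific IgE with DNP-BSA, and BSA + luteolin cells were stimulated and treated with luteolin, a plant flavone, which the study calls a pretreatment in one place and a treatment after stimulation in another, so the order is not known here. The labels give luteolin at 10 μM for 24 h in the same words for all 9 samples, Control and BSA included, and do not say when the antigen was added. Nothing says whether Control cells carried IgE or whether replicates came from separate mice or cultures. The p-values below therefore measure the spread between these libraries, which may be technical.

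Crosslinking of IgE bound to FcεRI, the high-affinity IgE receptor, starts kinase cascades in mast cells that lead to degranulation, lipid mediators and a fast wave of transcription of cytokine and early response genes. The level of an RNA falls when it is made more slowly or decays faster, and a count of RNA does not separate these. In bulk RNA, fewer cells of a type and less RNA per cell cannot be told apart.

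The libraries held 9515004 to 24605689 counts, with the smallest number in Control replicate 2, so that 3 counts corresponded to 0.121 to 0.291 CPM. All 10 mast cell markers, among them Kit, Fcer1a and Cpa3, were above the filter, with summed levels of 54427.5 to 83434 CPM in Control, 58386 to 65363 CPM in BSA and 70301 to 81496 CPM in BSA + luteolin. The Control libraries differed among themselves, also in single markers that these sums hide. Mcpt4, a mast cell protease, was at 1752 CPM in Control replicate 1 and at 201.5 and 196.8 CPM in replicates 2 and 3. Mcpt8, a basophil protease, was at 431.7, 21.8 and 18.7 CPM, and Prg2, an eosinophil granule protein, at 31.5, 0.0969 and 0 CPM. Summed over 9 neutrophil markers, such as S100a8 and S100a9, replicates 2 and 3 held 7.85 and 6.06 CPM, whereas Control replicate 1 held 272.3 CPM, next to 196.3 to 215.9 CPM in BSA and 225.2 to 263.8 CPM in BSA + luteolin. No neutrophil marker was at 0 in all libraries, and none of the markers of any of the 10 cell types was among the 91 genes. The part of these differences in the results was not tested, and Control replicate 1 is shown apart where a result rests on it.

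Taken one at a time, the conditions were met by 982 genes for the fall in BSA, by 337 genes for the higher level with luteolin and by 588 genes for the order of libraries. Both ratios together were met by 160 genes, and the order of libraries left 91. Turned over, the same rule found 380 genes that were high in BSA against both other groups. Among the 91 genes, mean BSA ranged from 0.288 to 0.709 times mean Control, with a median of 0.563, and mean BSA + luteolin from 1.4 to 2.62 times mean BSA, with a median of 1.57. A fall to 0.5 or less in BSA was seen in 31 genes, a ratio of 2 or more with luteolin in 9, and both in 7. The genes just inside the limit of the first ratio were Isca2 (0.709), Mettl21a (0.705) and 1600014C10Rik (0.704), and just outside it lay Rad1 (0.711), Irgq (0.717) and Zfp444 (0.718). At the limit of the second ratio, Txnl4b (1.403), Calhm2 (1.403) and Uck1 (1.407) lay inside, and Zbtb5 (1.398), Mrgpre (1.397) and Ormdl3 (1.39) outside.

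**Figure D1:**
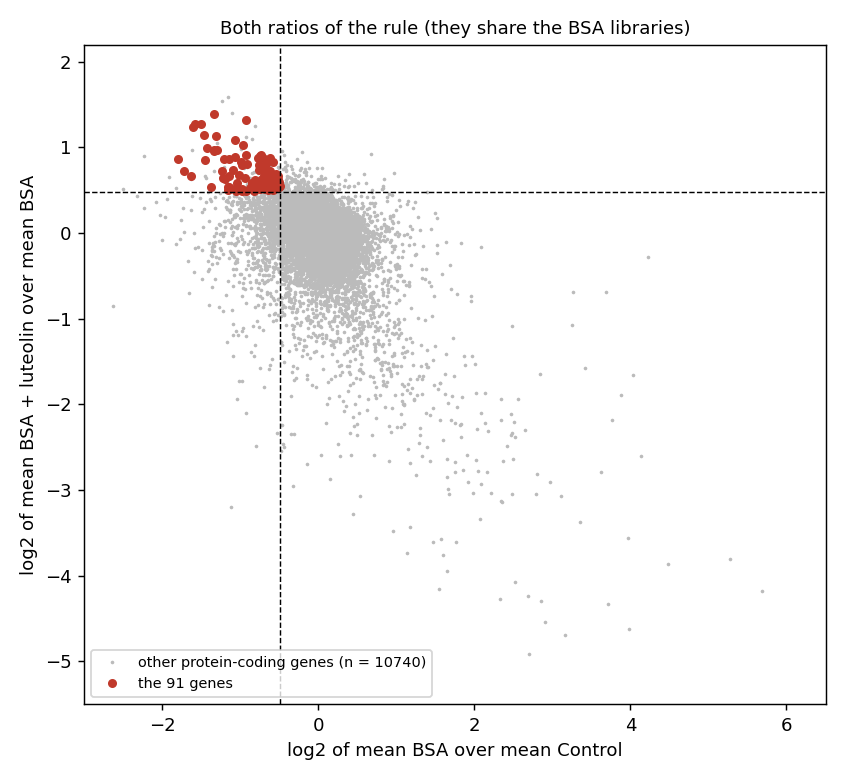
Each point is 1 protein-coding gene, with log2 of mean BSA over mean Control on the x axis and log2 of mean BSA + luteolin over mean BSA on the y axis. Dashed lines mark ratios of 0.71 and 1.4. The 91 genes (red) fill the upper left corner, where 160 genes met both ratios, and are joined there by grey points that failed the order of libraries.

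Because the rule placed each Control library above BSA, a fall against each was fixed, and its size is a description. The median over the 91 genes of log2 of mean BSA over the library was -0.83 for Control replicate 1, -0.89 for replicate 2 and -0.84 for replicate 3. Mean BSA was at most 0.71 times the library in 74, 80 and 70 of the 91 genes. Summed over the 91 genes, the level was 1573 to 1678 CPM in Control, 895 to 938 CPM in BSA and 1379 to 1460 CPM in BSA + luteolin. The sums of the groups did not overlap, as the rule requires of BSA, and the BSA + luteolin sums also lay under each Control sum.

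**Figure D2:**
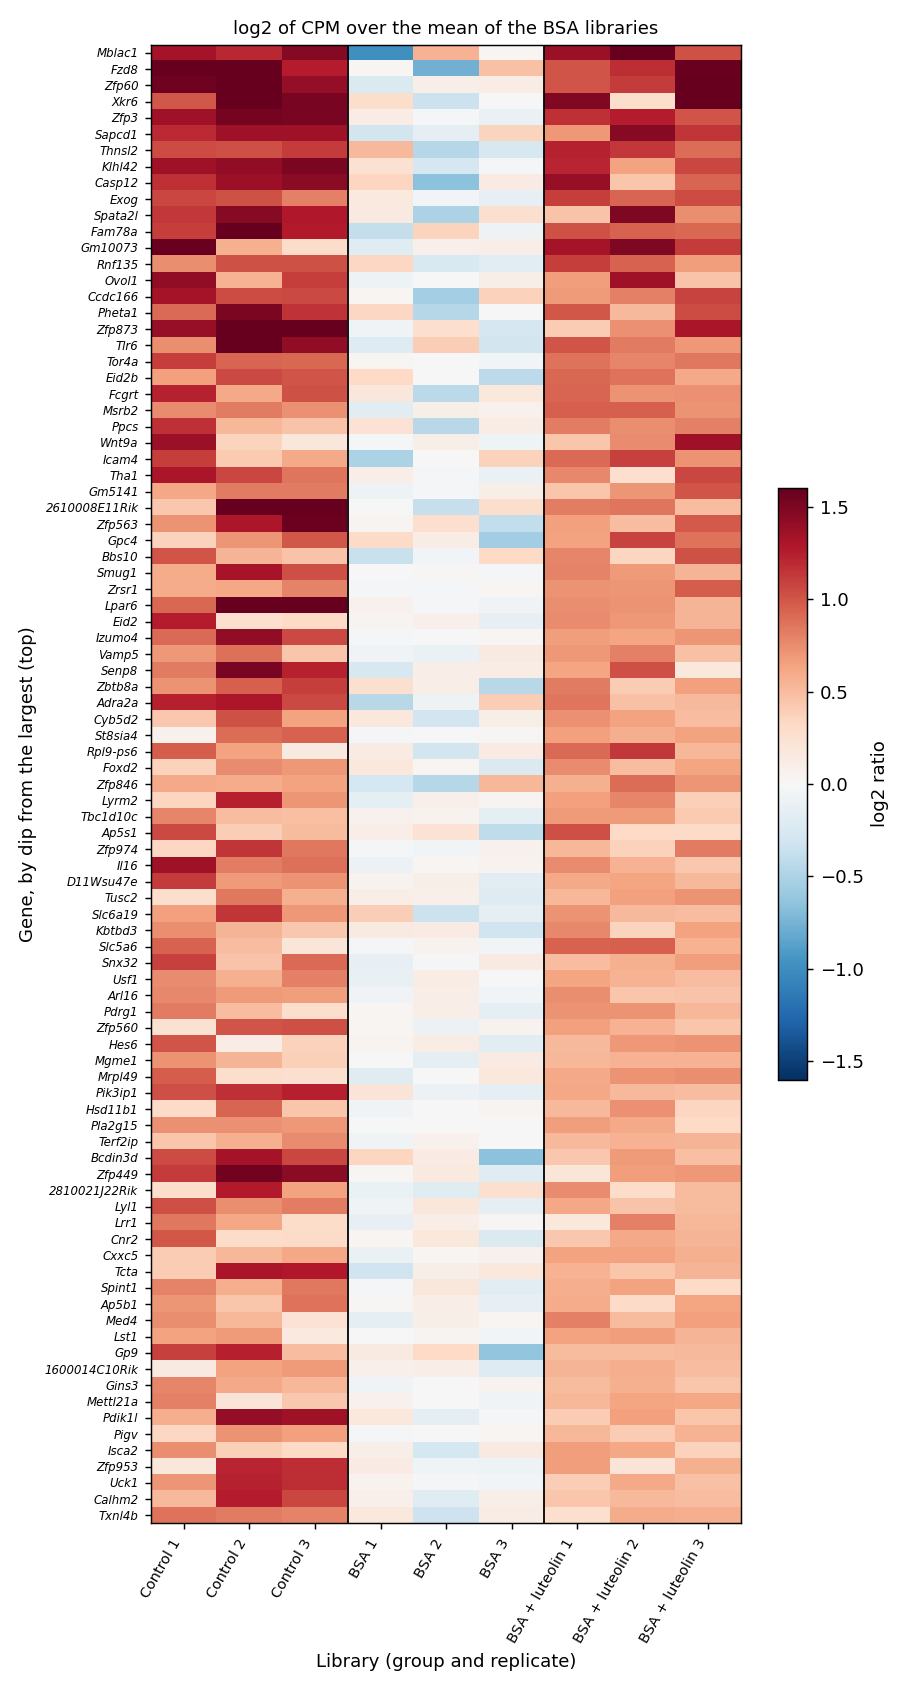
Rows are the 91 genes, ordered from the largest dip (top), and columns are the 9 libraries, and the color is log2 of the gene's CPM over its mean in the BSA libraries, capped at the ends of the scale. Columns of Control and BSA + luteolin are above 0 in every row, as the rule requires, and several rows, such as Lpar6 and 2610008E11Rik, are far higher in Control replicates 2 and 3 than in replicate 1.

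Genes were ranked by their dip, the log2 ratio of the smaller of the Control and BSA + luteolin means to the BSA mean, which ran from 1.34 down to 0.49. The first 7 in this order are the genes past both 0.5 and 2. Mblac1, a metallo-beta-lactamase domain protein, was at 1.80, 1.65 and 1.98 CPM in Control replicates 1 to 3, at 0.362, 1.05 and 0.731 CPM in BSA, and at 1.86, 2.31 and 1.45 CPM in BSA + luteolin. Its Control and BSA + luteolin libraries overlapped, and the BSA values rest on 44 counts in all. Fzd8, a Frizzled receptor for Wnt ligands, was at 3.11, 3.10 and 2.43 CPM in Control, at 1.04, 0.600 and 1.41 CPM in BSA, and at 2.05, 2.31 and 3.05 CPM in BSA + luteolin. Here too the outer groups overlapped.

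Zfp60, a KRAB-type zinc finger gene, was at 7.05, 8.14 and 6.31 CPM in Control, at 2.03, 2.55 and 2.58 CPM in BSA, and at 4.80, 5.18 and 7.35 CPM in BSA + luteolin. The third BSA + luteolin library lay within the Control range and the others below it. Xkr6, a member of the XK-related membrane proteins, was at 1.26, 2.71 and 1.81 CPM in Control, at 0.769, 0.50 and 0.634 CPM in BSA, and at 1.77, 0.769 and 1.93 CPM in BSA + luteolin. It rests on 40 counts over the BSA libraries, and its lowest BSA + luteolin library equals the highest BSA library to 3 digits. Zfp3, another zinc finger gene, was at 3.5, 3.97 and 3.92 CPM in Control, at 1.49, 1.35 and 1.27 CPM in BSA, and at 3.08, 3.28 and 2.76 CPM in BSA + luteolin. In Zfp3 the 3 groups were fully apart, with BSA + luteolin in the middle.

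Sapcd1 was at 1.65, 1.84 and 1.85 CPM in Control, at 0.588, 0.650 and 0.927 CPM in BSA, and at 1.17, 1.98 and 1.6 CPM in BSA + luteolin. Thnsl2, a threonine synthase-like protein, was at 1.56, 1.55 and 1.65 CPM in Control, at 1.08, 0.550 and 0.634 CPM in BSA, and at 1.77, 1.66 and 1.4 CPM in BSA + luteolin. In both genes the BSA + luteolin libraries surrounded the Control libraries. Klhl42, a Kelch protein that serves as a substrate adaptor of a cullin ubiquitin ligase, was at 13.8, 14.3 and 15.3 CPM in Control, at 6.37, 4.45 and 5.32 CPM in BSA, and at 12.5, 8.42 and 11.3 CPM in BSA + luteolin. Its BSA + luteolin libraries all lay under Control.

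Casp12, a caspase of the inflammatory group, was at 1.61, 1.84 and 1.94 CPM in Control, at 0.904, 0.450 and 0.780 CPM in BSA, and at 1.86, 0.971 and 1.35 CPM in BSA + luteolin, and the second of these was close to the highest BSA value. Exog, a mitochondrial nuclease, was at 7.15, 6.88 and 5.94 CPM in Control, at 3.80, 3.30 and 3.12 CPM in BSA, and at 7.36, 6.52 and 7.01 CPM in BSA + luteolin. Control and BSA + luteolin overlapped in Exog. Spata2l was at 1.70, 2.13 and 1.90 CPM in Control, at 0.859, 0.550 and 0.927 CPM in BSA, and at 1.07, 2.19 and 1.31 CPM in BSA + luteolin. Fam78a was at 6.18, 8.72 and 6.92 CPM in Control, at 2.22, 3.70 and 2.73 CPM in BSA, and at 5.83, 5.55 and 5.46 CPM in BSA + luteolin, with no overlap between any groups.

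**Figure D3:**
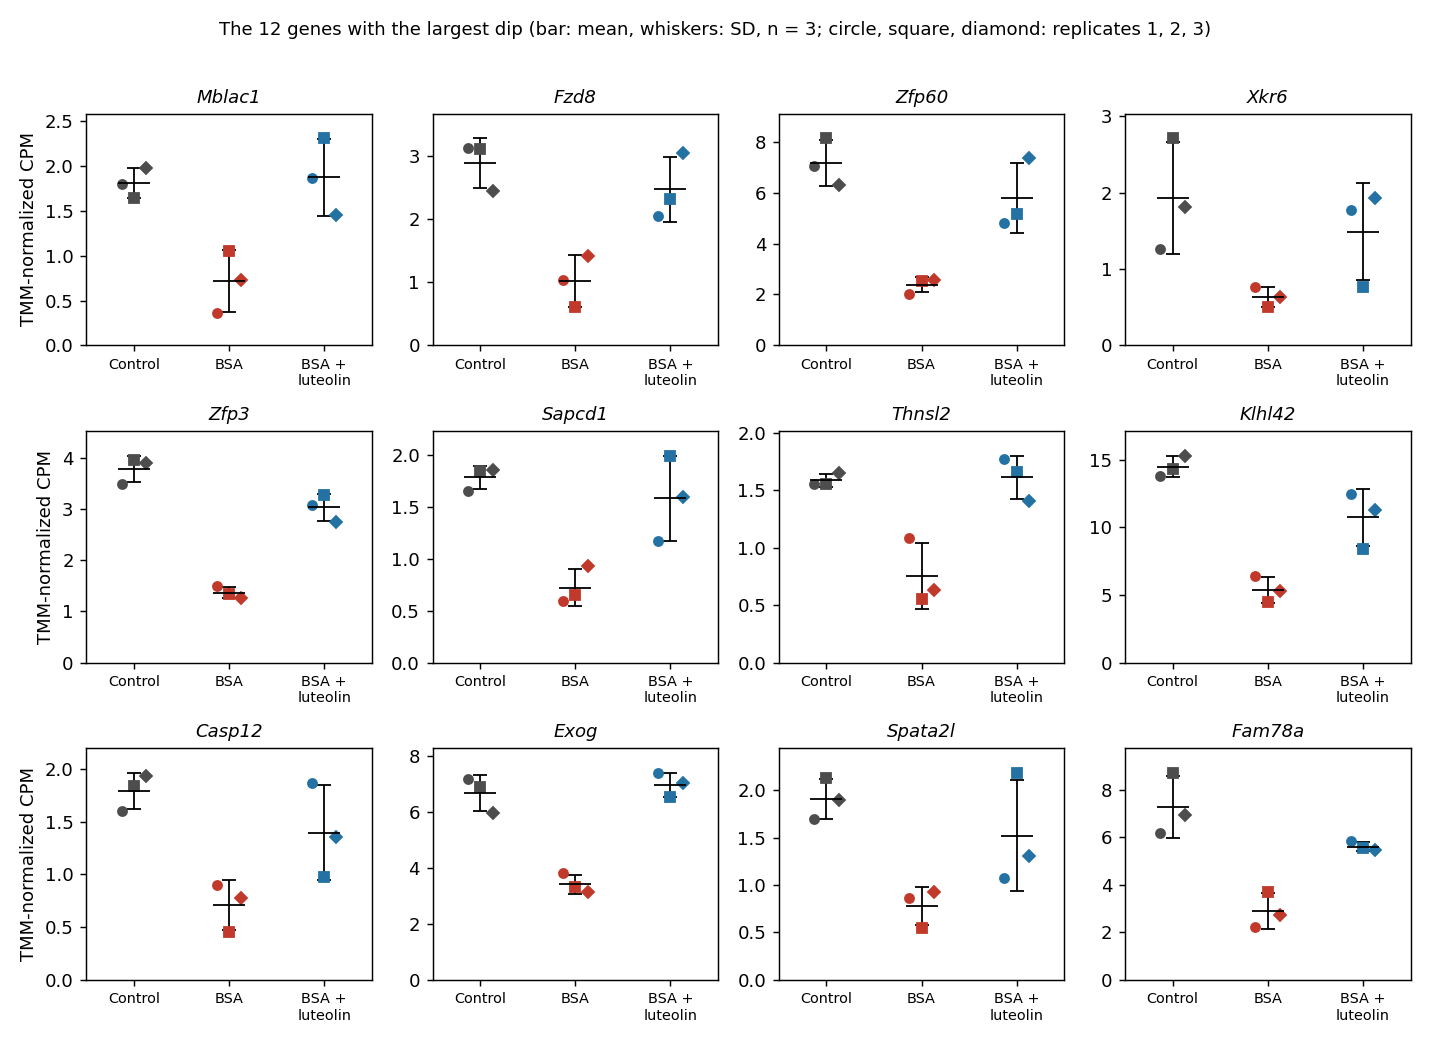
TMM-normalized CPM (y axis, linear from 0) in Control, BSA and BSA + luteolin (x axis) for the 12 genes with the largest dip, with points for the 3 libraries, a bar for the mean and whiskers for the SD. BSA lies lowest in each panel, and 9 of the 12 genes are under 8 CPM in each Control library.

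To show the sequence in front of genes of this set, the stretch before the start site is given for the 4 genes with the largest dip that the RefSeq promoter table (GRCm38.p6) holds with at least 150 bases ahead of both the RefSeq and the GENCODE start. Sequences run 5′ to 3′ toward the gene, and capitals mark matches of the motifs searched. They span chr5:138194064-138194313 (plus strand) for Mblac1, chr7:27731159-27731388 (plus strand) for Zfp60, chr6:71144440-71144630 (minus strand) for Thnsl2 and chr9:5345226-5345429 (plus strand) for Casp12.
Mblac1: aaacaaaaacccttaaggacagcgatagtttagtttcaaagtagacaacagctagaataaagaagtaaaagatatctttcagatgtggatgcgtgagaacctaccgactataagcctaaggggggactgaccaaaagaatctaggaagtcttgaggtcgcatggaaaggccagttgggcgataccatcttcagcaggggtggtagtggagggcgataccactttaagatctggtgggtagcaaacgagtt
Zfp60: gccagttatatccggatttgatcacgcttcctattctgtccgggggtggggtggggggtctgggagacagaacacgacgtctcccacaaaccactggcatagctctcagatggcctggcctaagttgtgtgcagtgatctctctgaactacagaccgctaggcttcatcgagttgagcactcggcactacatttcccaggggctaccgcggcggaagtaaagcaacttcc
Thnsl2: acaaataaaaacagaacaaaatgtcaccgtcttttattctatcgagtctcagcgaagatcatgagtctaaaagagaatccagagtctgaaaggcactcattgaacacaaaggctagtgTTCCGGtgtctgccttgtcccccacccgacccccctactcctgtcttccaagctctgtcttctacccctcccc
Casp12: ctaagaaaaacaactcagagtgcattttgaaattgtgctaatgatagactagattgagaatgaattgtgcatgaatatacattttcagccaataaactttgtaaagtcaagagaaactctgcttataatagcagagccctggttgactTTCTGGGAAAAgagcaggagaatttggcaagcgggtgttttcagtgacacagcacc
Mblac1 and Zfp60 have no match in the stretch shown. Thnsl2 has 1 ETS match (CCGGAA on the other strand), and Casp12 has a STAT match (TTCNNNGAA) that shares bases with an NFAT match (GGAAAA). The 4 stretches held 44.8%, 55.7%, 47.6% and 38.2% G and C, and 7, 11, 5 and 1 CpG dinucleotides.

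Next in the order came Gm10073, Rnf135, Ovol1, Ccdc166, Pheta1, Zfp873, Tlr6, Tor4a, Eid2b, Fcgrt, Msrb2 and Ppcs. Rnf135, an E3 ubiquitin ligase that acts on the RNA sensor RIG-I, had 8.13 ± 0.85 CPM in Control, 4.26 ± 0.97 CPM in BSA and 8.04 ± 1.21 CPM in BSA + luteolin (SD, n = 3). Ovol1, a zinc finger transcription factor of epithelia that is not among the Zfp symbols, had 2.21 ± 0.64, 1.06 ± 0.064 and 1.95 ± 0.67 CPM in the same order (SD, n = 3). Ccdc166 had 5.01 ± 0.59, 2.26 ± 0.69 and 4.13 ± 0.59 CPM, and Pheta1, a protein of endosomal sorting, had 3.47 ± 0.73, 1.503 ± 0.40 and 2.74 ± 0.52 CPM. Gm10073 had 8.56 ± 4.30, 4.503 ± 0.495 and 11.3 ± 1.41 CPM, with Control replicate 1 at 13.5 CPM and the other Control libraries at 6.68 and 5.52 CPM. Zfp873 had 2.45 ± 0.54, 0.704 ± 0.13 and 1.28 ± 0.41 CPM. Tlr6, which pairs with Tlr2 to sense diacylated lipopeptides, had 3.42 ± 1.38, 1.253 ± 0.34 and 2.26 ± 0.24 CPM in the same order (SD, n = 3). Its Control libraries ran from 2.09 CPM in replicate 1 to 4.84 CPM in replicate 2. Fcgrt, the heavy chain of the neonatal Fc receptor, had 2.12 ± 0.45, 1.08 ± 0.24 and 1.87 ± 0.15 CPM. Tor4a, a torsin-family ATPase, stood out among these 12 by its depth, with 2528 counts over the BSA libraries, and had 80.1 ± 5.97, 40.3 ± 1.06 and 71.8 ± 2.28 CPM (SD, n = 3). Eid2b, from a pair of genes for inhibitors of differentiation that bind the EP300 acetyltransferase, had 9.13 ± 1.31, 4.84 ± 1.22 and 8.45 ± 0.96 CPM. Msrb2, a mitochondrial methionine sulfoxide reductase, had 5.58 ± 0.20, 3.27 ± 0.33 and 6.02 ± 0.57 CPM, and Ppcs, an enzyme of coenzyme A synthesis, had 6.79 ± 1.96, 4.03 ± 0.95 and 6.98 ± 0.20 CPM.

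Grouped by what they are known to do, 59 of the 91 genes fell into 8 groups, which were drawn up after the values were seen and carry no test. The 10 zinc finger genes (Zfp60, Zfp3, Zfp873, Zfp563, Zfp974, Zfp846, Zfp560, Zfp449, Zfp953 and Zbtb8a) had a median ratio of BSA to Control of 0.474, and their median ratio of BSA + luteolin to Control was 0.803. A further 9 were transcription factors or cofactors, with medians of 0.618 and 0.984. Lyl1, a basic helix-loop-helix factor of blood progenitors, had 79.0 ± 8.14 CPM in Control, 43.2 ± 5.32 CPM in BSA and 62.3 ± 3.70 CPM in BSA + luteolin (SD, n = 3). Usf1, which binds E-boxes, had 32.9 ± 2.88, 20.0 ± 1.65 and 29.6 ± 1.36 CPM. Hes6, a member of the Hes family of Notch-related factors, had 18.1 ± 5.96, 12.4 ± 1.26 and 19.4 ± 1.38 CPM, with Control replicate 2 (13.5 CPM) only slightly above the highest BSA library (13.4 CPM).

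Among 6 genes for mitochondrial proteins (Exog, Mgme1, Mrpl49, Isca2, Lyrm2 and Msrb2), the median ratio of BSA + luteolin to Control was 1.04, and 2 of the 6 were below Control in mean. For the 11 receptors, ligands and adhesion molecules, the ratios had medians of 0.509 for BSA over Control and 0.856 for BSA + luteolin over Control. Lpar6, a receptor for lysophosphatidic acid, was at 93.6, 169.2 and 195.1 CPM in Control, at 51.7, 48.8 and 47.5 CPM in BSA, and at 82.5, 81.1 and 72.0 CPM in BSA + luteolin. Control replicate 1 thus lay much nearer the BSA + luteolin libraries than the other Control libraries did. Il16, a chemoattractant cytokine precursor, had 30.1 ± 6.43, 14.7 ± 0.79 and 22 ± 2.54 CPM (SD, n = 3). Cnr2, the cannabinoid receptor of immune cells, had 32.7 ± 9.67, 22 ± 2.97 and 31.7 ± 1.97 CPM. Fzd8 and Wnt9a, a receptor and a ligand of Wnt signaling, were both in the set.

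The 7 metabolic enzymes had median ratios of 0.608 and 0.947. St8sia4, a polysialyltransferase, was at 83.2, 147.2 and 153.1 CPM in Control, at 78.8, 79.2 and 80.6 CPM in BSA, and at 125.1, 118.9 and 124.1 CPM in BSA + luteolin. Its Control replicate 1 exceeded the BSA libraries only slightly. Uck1, a uridine-cytidine kinase, had 90.7 ± 17.2, 43.5 ± 1.66 and 61.3 ± 4.81 CPM, and Pla2g15, a lysosomal phospholipase, had 65.7 ± 0.93, 39.9 ± 0.22 and 58.1 ± 7.31 CPM (SD, n = 3). Hsd11b1, which regenerates active glucocorticoid from its inactive keto form, had a ratio of BSA to Control of 0.666 and of BSA + luteolin to Control of 0.969. The 9 genes of transport and sorting included Ap5b1 and Ap5s1, subunits of the AP-5 adaptor complex, and had medians of 0.621 and 0.90. The 4 genes of ubiquitin or ubiquitin-like conjugation (Rnf135, Klhl42, Kbtbd3 and Senp8) had medians of 0.477 and 0.865, and 3 of DNA repair, replication or telomeres (Smug1, Gins3 and Terf2ip) had 0.640 and 0.910.

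Counted with edgeR's quasi-likelihood test and a Benjamini-Hochberg adjusted p-value under 0.05, 19 of the 91 genes were lower in BSA than in Control, where 1.02% of all genes tested were. In BSA + luteolin against BSA, 73 were higher, where 18.1% of all genes tested were. The set was selected on these contrasts, so the counts only describe it. The background moved with these counts. Without Control replicate 1, 77 of the 91 and 22.4% of all genes tested were called lower in BSA, and with any other of the 6 libraries left out, 0 to 5 of the 91 and 2 to 13 genes in all were (0 of the 91 without BSA replicate 3). When all 9 libraries shared 1 fit, 51 of the 91 were called lower in BSA, where 3.73% of all were, and 34 higher with luteolin, where 1.52% of all were. With the replicate number as a block, 4 were called lower in BSA and 79 higher with luteolin, where 0.147% and 22.8% of all were.

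BSA + luteolin against Control is the comparison whose difference the rule did not set directly. Both groups entered the rule through their ratio or order to BSA. The rule favors genes that read high in Control and genes that read high in BSA + luteolin. It also sets a floor, as each gene's ratio of BSA + luteolin to Control is at least 1.4 times its ratio of BSA to Control. Genes with a small fall in BSA were thus placed near or above Control by the choice. The comparison describes how near the Control level the genes stood with luteolin, and part of that nearness was fixed. In mean, 27 of the 91 genes were above and 64 below Control, and 34 lay within 0.9 to 1.1 times Control. The ratio ran from 0.504 to 1.31, with a median of 0.889. The fitted median log2 fold change was -0.17 over the 91 genes and 0.01 over all 11560 genes. Expressed as the share of the fall that was regained, the median was 76.3%. The rule set a minimum to this share in each gene, higher for a smaller fall, so the share only describes the set. A low share was possible only in genes with a deep fall in BSA. The lowest shares were those of Zfp449 (28.0%), Lpar6 (28.3%) and 2610008E11Rik (28.7%), and the highest that of Gm10073 (166.4%).

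By edgeR's quasi-likelihood test with adjustment over all genes, 1 of the 91 genes was lower in BSA + luteolin than in Control and 0 were higher, against 2.75% and 0.285% of all genes tested. At an unadjusted p under 0.05, 12 of the 91 (13.2%) were lower and 0 higher, where 14.9% and 8.08% of all genes tested were. The 1 gene was Pik3ip1, an inhibitor of phosphoinositide 3-kinase. It was at 38, 41.8 and 44.1 CPM in Control, at 21.6, 17.5 and 16.9 CPM in BSA, and at 28.7, 26.7 and 26.2 CPM in BSA + luteolin, so that no groups overlapped and BSA + luteolin was in the middle. Against Control it fell to a log2 fold change of -0.61 ± 0.11 (SE), with an adjusted p of 0.0401 by edgeR. Across the alternatives that adjusted p ranged from 6.80e-06 to 0.239, and with the replicate number as a block it was 0.0960. DESeq2 called 3 of the 91 genes (3.3%) lower and 0 higher, where it called 8.89% and 3.04% of all genes tested.

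For other genes the call depended on the fit. On the log2 scale, the difference was -0.96 ± 0.26 (SE) for Lpar6, with an adjusted p of 0.0933 by edgeR, and -0.57 ± 0.16 for Uck1, with 0.107. Lyl1 was at -0.35 ± 0.11 and Zfp873 at -0.94 ± 0.34, with adjusted p-values of 0.144 and 0.172. DESeq2 gave adjusted p-values of 0.00689 for Lpar6 and 0.0226 for Uck1. Without Control replicate 1, edgeR called all 4, with adjusted p-values of 1.68e-09 for Lpar6, 8.92e-07 for Uck1, 0.00779 for Lyl1 and 0.0109 for Zfp873. For Mblac1, Exog, Rnf135 and Thnsl2, the values were 0.04, 0.06, -0.02 and 0.02, with standard errors of 0.28, 0.17, 0.18 and 0.26. A p-value that misses the threshold does not show that levels were equal. All 3 BSA + luteolin libraries lay below all Control libraries in 18 of the 91 genes, against 14.9% of all genes tested, and above them in 0, against 13.6%.

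Which Control libraries were used mattered for the calls and less for the medians. Against Control replicate 1 alone, the median log2 ratio of mean BSA + luteolin to the library was -0.17 over the 91 genes, and it was -0.19 and -0.13 against replicates 2 and 3. The mean with luteolin was below the library in 62, 60 and 60 of the 91 genes. With Control replicate 1 left out of the fit, edgeR called 22 of the 91 genes lower and 7 higher in BSA + luteolin than in Control. These are 24.2% and 7.69% of the 91, where 30.1% and 29.9% of all genes tested were called lower and higher in that fit. The remaining Control libraries were those with few neutrophil transcripts. Among the genes called there, the lowest log2 fold changes were those of 2610008E11Rik (-1.37), Lpar6 (-1.23) and Zfp873 (-1.12), and the highest those of Gm10073 (0.91), Rpl9-ps6 (0.51) and Mrpl49 (0.41). With any library but Control replicate 1 left out, 0 of the 91 were called by edgeR. Those fits called few genes at all, 0.0173% to 0.407% of all genes tested lower and 0% to 0.0346% higher.

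**Figure D4:**
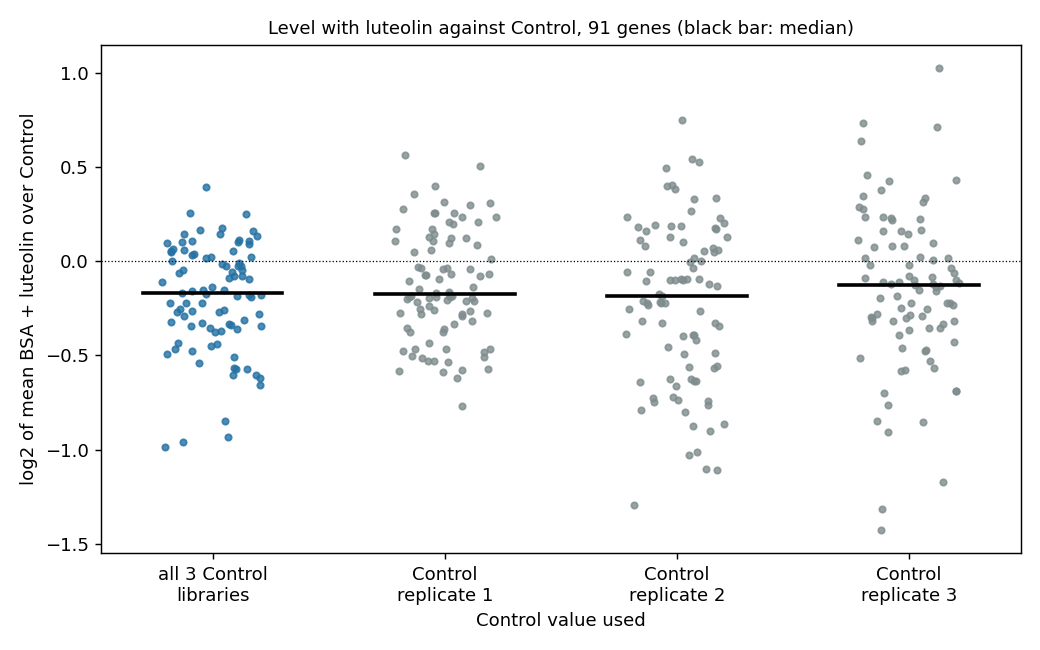
Each point is 1 of the 91 genes, and the y axis gives log2 of its mean in BSA + luteolin over Control, with the Control value used on the x axis: the mean of all 3 libraries, or 1 library. Black bars are medians, which lie a little under 0 in each column (-0.17, -0.19 and -0.13 for replicates 1, 2 and 3), while single genes spread more widely against replicates 2 and 3.

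The rule was also applied with each library left out in turn, and the library left out was then read for the genes so chosen. With a Control or BSA + luteolin library left out, 80.7% to 94.9% of the genes chosen lay above the highest BSA library in it, where 34.4% to 39.8% of all protein-coding genes tested did. The genes were chosen for low values in those same BSA libraries, which the other genes were not, so most of this was fixed by the choice. A BSA library left out lay below all 6 other libraries in 69.0% to 76.6% of the genes, where it did in 11.3% to 13.7% of all, and here the genes were chosen for high values in those 6 libraries. These readings are descriptions, and no support is drawn from them.

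The 91 genes had lower levels than most genes tested. Their median mean CPM in Control was 7.68, against 30.9 over all protein-coding genes tested, and 26 of them were under 5 CPM. Over the BSA libraries together, 18 rested on fewer than 100 counts. Per kilobase of exon, Control levels ran from 0.214 CPM for Zfp846 to 46.9 CPM for Lst1, a small myeloid membrane protein, followed by Lyl1 at 43.9 CPM and Uck1 at 33.0 CPM per kilobase.

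Their gene structures differed from the background in a direction the rule did not use. The longest transcript had a median of 4 exons, against 9 over all protein-coding genes tested, and a median length of 2573 bases against 3142. Of the 91 genes, 11 (12.1%) had 1 exon, against 1.99% of protein-coding genes tested, and 25.3% had at most 2, against 6.20%. Among genes under 20 CPM in Control, where most of the set lies, 12.3% of the set and 3.47% of all had 1 exon. The genes of 1 exon included Mblac1, Fzd8, Lpar6, Eid2, Eid2b, Adra2a and Foxd2. Median GC content of the transcript was 51.9%, against 49.9%. When a per-library trend on exonic length was removed from the counts, 138 genes met the rule, 88 of the 91 among them, and with a trend on GC content 154 did, with 90 of the 91.

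**Figure D5:**
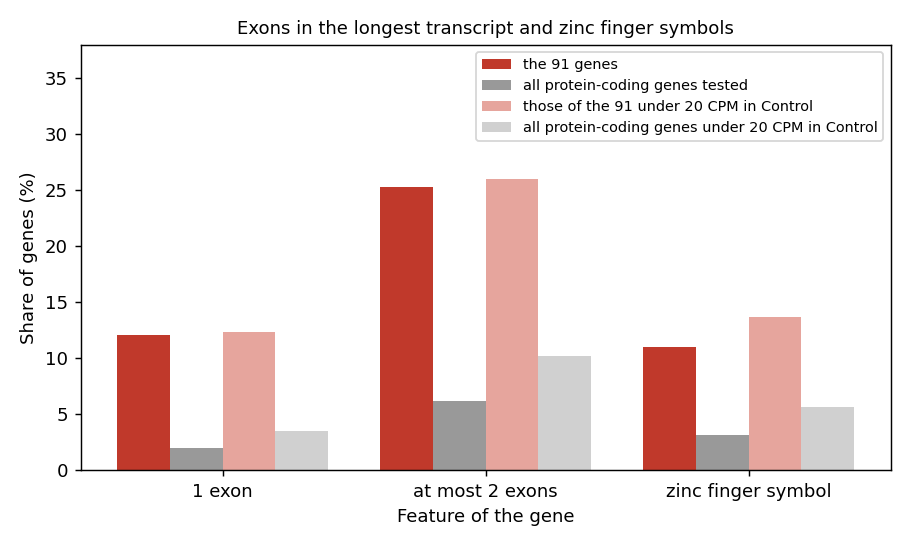
Bars give the share of genes (y axis, %) with 1 exon or at most 2 exons in the longest transcript, or with a zinc finger symbol (x axis), for the 91 genes and all protein-coding genes tested, and again for genes under 20 CPM in Control. The red bars are above the grey bars for each feature, 12.1% against 1.99% for 1 exon and 11% against 3.15% for zinc finger symbols.

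Zinc finger symbols (Zfp, Zbtb, Zscan or Zkscan) were carried by 10 of the 91 genes (11%) and by 341 of the protein-coding genes tested (3.15%). Among genes under 20 CPM in Control, the shares were 13.7% and 5.60%. The rule fixed a rise with luteolin relative to BSA in these 10, so the whole family is described on its own. In mean, 9 of these 10 were below Control with luteolin. Of the 341 zinc finger genes, 17 were lower and 6 higher in BSA than in Control by edgeR's test, where 1.02% and 2.25% of all genes tested were. Relative to BSA, 101 fell and 21 rose with luteolin, where 21.9% and 18.1% of all genes did. Against Control, 28 were lower and 0 higher in BSA + luteolin, where 2.75% and 0.285% of all genes were. Their median log2 fold changes were -0.37, -0.15 and -0.50 in these comparisons, and each stayed below 0 under the 4 scalings tried (TMM, library size alone, upper-quartile and RLE factors). The split with luteolin relative to BSA moved with scaling, to 83 lower and 46 higher with library size alone, where the median was -0.04 and 15.3% of all genes were called lower and 33.4% higher. Without Control replicate 1, 202 of the 341 were lower and 17 higher in BSA than in Control, and 235 were lower and 5 higher in BSA + luteolin than in Control, in fits that called 22.4% and 30.1% of all genes lower. KRAB-type zinc finger proteins bind DNA and many silence transposable elements. Their genes lie in clusters of similar copies, so reads can match several of them. The file headers name htseq-count as the counter, but its settings are not given in the sources used here.

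Other lists given by gene names, such as those for mast cells and for restraint of growth, held 0 or 1 of the 91 genes each. Of the further lists by symbol, that of solute carriers held 2 (Slc5a6 and Slc6a19) of 193 genes tested, and the others 0 or 1. As 0.787% of all genes tested are in the set, lists of this size cannot show a depletion. The list of quiescence and growth restraint genes, with FOXO targets and brakes of phosphoinositide 3-kinase, had 49 genes tested and 1 in the set, Pik3ip1. Relative to BSA, 4 genes of that list were higher and 33 lower with luteolin by edgeR's test, where 18.1% and 21.9% of all genes tested were. In BSA against Control, 5 were higher and 4 lower, where 2.25% and 1.02% of all were, and in BSA + luteolin against Control, 0 were higher and 10 lower, where 0.285% and 2.75% of all were. Without Control replicate 1, the balance in BSA against Control turned to 12 higher and 20 lower, with a median log2 fold change of -0.14 in place of 0.11, where 22.6% and 22.4% of all genes were called. Against Control, 1 gene of the list was then higher and 42 lower in BSA + luteolin, where 29.9% and 30.1% of all were. Lyl1 was the 1 gene of the set among the 48 listed hematopoietic transcription factors tested, Lpar6 of 52 G protein-coupled receptors and RGS proteins, and Hes6 of 44 genes of TGF-beta, BMP, Notch and Wnt signaling. The lists are not complete, and Cnr2, Adra2a, Fzd8 and Wnt9a, which belong to these families, are in the set but not in the lists. No gene of the set was among 32 mast cell identity genes, 47 cytokine and growth factor receptors, 43 inhibitory receptors and phosphatases, 52 interferon-stimulated genes or 51 cell division genes. Of 32 genes that mark the response to stimulation, such as Egr1, Nr4a1 and Tnf, 28 were higher in BSA than in Control and all 32 were lower with luteolin than without it, opposite to the 91 genes.

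On the genome (GRCm38), the set was spread over all autosomes but 3 and 16, with 10 genes on chromosome 11, 9 on chromosome 9 and 8 each on chromosomes 2 and 19. Eid2 (chromosome 7, 28267881 to 28269272) and Eid2b (28277739 to 28279489) were 8466 bases apart, and Zfp60 and Zfp974 lay 153689 bases apart on the same chromosome. On chromosome 19, Snx32, Ovol1 and Ap5b1 lay within 1 stretch, with gaps of 38597 and 7378 bases. Of the 91 genes, 28 overlap another annotated gene, of which 25 (27.5%) overlap one on the other strand and 5 (5.49%) one on the same strand, where 31.5% and 8.47% of all protein-coding genes tested do. Among the overlapping genes, 15 were above the filter, and 0 of them met both ratios of the rule. Rb1, on the strand opposite to Lpar6, was at 1.248 times its Control level in BSA, and Commd1, on the strand opposite to Zrsr1, was at 0.846 times its Control level. Commd1 met the second ratio, with BSA + luteolin at 1.51 times BSA, next to 1.74 times for Zrsr1. Vwa7, opposite to Sapcd1, and Pomt1, opposite to Uck1, met the first ratio, at 0.543 and 0.707 times Control in BSA. The libraries kept strand, but the strand setting of the counting is not given in the sources used here, so values of overlapping genes carry that uncertainty. Gm10073 and Rpl9-ps6 resemble ribosomal protein genes, and reads of their copies may be shared.

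In promoters, 75 of the 91 genes and 8703 of the protein-coding genes tested had a RefSeq entry, and 250 bases before the start were searched on both strands. GGGCGG, the core of the SP and KLF box, was found in 42.7% of the set and 60.9% of all. CACGTG, an E-box, was found in 4.0% and 8.56%, and CCGGAA, the ETS core, in 26.7% and 24.3%. For TGACGTCA, the cAMP response element, the shares were 4.0% and 2.76%, for TGANTCA, the AP-1 site, 2.67% and 4.03%, and for GTAAACA, a FOXO site, 4.0% and 2.07%. The NFAT letters GGAAAA were present in 20% of the set and 18.5% of all. RUNX letters, TGTGGT, were in 12% and 10.7%, and for PU.1, an ETS factor of myeloid cells searched as GAGGAAG, the shares were 10.7% and 10.9%. For EGR, searched as GCGTGGG, they were 6.67% and 7.45%. GATA letters, AGATAA, were in 6.67% and 5.91%. The STAT pattern TTCNNNGAA was found in 6.67% and 5.97%, and the TATA box, TATAAA, in 5.33% and 5.93%. Motifs can share bases, as STAT and NFAT do in Casp12, and each was counted on its own. Median GC content of these stretches was 57.6% in the set and 60% in all, with a median of 13 and 16 CpG dinucleotides. Matches are letters in a window and were not tested as binding sites.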

How the data were processed

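RNA of BMMCs was measured in 9 libraries of 3 groups. The authors made stranded mRNA libraries, aligned reads with STAR 2.7.0f to mm10 per the labels, counted them with htseq-count per the file headers, and deposited raw counts per Ensembl gene, with no filter or normalization. Gene names and biotypes came from GENCODE M21, which held 99.1% of the IDs. Genes with a median CPM above 1 were kept, and TMM factors were taken from them over all 9 libraries. Contrasts were fitted on 6 libraries each with edgeR 4.0.16 (glmQLFit, two-sided, Benjamini-Hochberg over 11560 genes, threshold 0.05) in R 4.3.3, and checked with DESeq2 1.42.0 and limma 3.58.1.

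The genes, lists and tests were chosen with earlier results of these data known. Values are given for the 24 largest dips, genes past the threshold against Control, genes in lists given by names and genes next to a limit. Further genes were named after their values were seen. Zfp3 has no promoter shown, because its RefSeq start lies inside the GENCODE gene. Fzd8 has none either, because chromosome 18 was left out of the stretches shown. Equal replicate numbers did not pair libraries in every case: correlations of deviations between same-numbered libraries ran from -0.29 to 0.35. For BSA + luteolin with BSA, they had a mean of 0.16, against -0.08 for different numbers. With Control in place of BSA, these means were 0.13 and -0.07, and for BSA with Control -0.02 and 0.01. Whether libraries of 1 number share an origin is thus not settled. No replicates were the same library, since chi-square per degree of freedom between them was at least 4.05. Counting precision follows depth, and intervals were not computed.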

Additional observations from a re-analysis of the deposited data

How the results depend on the processing

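Where the settings below moved a count by more than 1.5 times or a median by more than the spread between libraries, the cause was not tested unless the setting itself asks for more or fewer genes or libraries. The number of genes meeting the rule, 91, became 276 with library size alone, 193 with upper-quartile factors, 58 with a median CPM above 5, 7 with limits of 0.5 and 2, 258 with looser limits and 160 without the order of libraries. After the data were seen, a length correction (138), a GC correction (154) and Control replicate 1 as the 1 Control library (163, of which 74 are among the 91) were added. Leaving out each library in turn gave 88 to 154. Library size alone moved the median log2 fold change of all genes in BSA + luteolin against BSA from 0.02 to 0.13, and in BSA against Control from 0.02 to -0.15.

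Of the 91, the number lower in BSA than in Control, 19, became 65 with DESeq2, 38 with library size alone, 51 with all 9 libraries in 1 fit, 4 with the replicate block, 29 with the length correction and 29 with the GC correction, and 0 to 77 with 1 library left out. Lower calls over all genes moved as well, from 118 to 628 with DESeq2, 291 with library size alone, 431 with all 9 libraries, 17 with the block, 204 and 211 with the corrections, and 2 to 2591 with 1 library left out. The number higher in BSA + luteolin than in BSA, 73, became 34 with all 9 libraries in 1 fit and was 59 to 70 with 1 library left out, where 10.5% to 19.9% of all genes were called higher. That share, 18.1%, became 33.4% with library size alone, 28.3% with upper-quartile factors, 29.5% with the length correction and 29% with the GC correction, with 83 to 86 of the 91 called. Against Control, 1 gene was called in the set, 3 with DESeq2, 3 with all 9 libraries, 0 with the replicate block and 0 to 29 with 1 library left out. Over all genes, 351 were called (33 higher, 318 lower), against 1379 with DESeq2, 811 without a filter, 1251 with all 9 libraries, 212 with the replicate block, 604 with the length correction and 2 to 6931 with 1 library left out, the highest without Control replicate 1. The median log2 fold change of the set against Control, -0.17, was -0.23 with library size alone, -0.10 without a filter, and -0.18 to -0.13 with 1 library left out. Pik3ip1 and the median of the set kept their sign, but 10 named genes near 0 changed sign against Control under at least 1 setting, with log2 fold changes of at most 0.17 in size and adjusted p-values of at least 0.244. Depth limits the low genes most, and the replicates share only a number, so the block is given here as an alternative.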
